A study of Drosophila melanogaster with 8 samples.

Results

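Fly intestinal stem cells that carried mutant mtDNA were compared with those that carried control mtDNA, in libraries where FOXO was left intact. The comparison used the 2 control and the 2 mutant libraries, 4 of the 8 in the series, and covered all 17473 genes of the count table. The samples were labelled as intestinal stem cells of Drosophila melanogaster with the genotypes "Control mtDNAs" and "Mutant mtDNAs". The other 4 libraries carried the same mtDNA types together with FOXO knockdown. They entered the fit to estimate the spread and for the tests of difference named with them. They also had a part in the choice of genes tested, in the scaling and in the average level used to name genes. The labels name neither the mtDNA mutation nor its load, and they give no age, sex, temperature, driver of the tagged protein or number of animals. After formaldehyde fixation, anti-FLAG beads were used to pull down pAbp, the poly(A)-binding protein, and the RNA on it was sequenced. Nothing in the labels says that replicates came from separate animals or cultures, so the p-values measure the spread between libraries, which may be technical. More of that spread is estimated from the knockdown libraries than from the 4 compared.

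Intestinal stem cells divide to renew the fly midgut, and their daughters become absorptive enterocytes or, less often, hormone-secreting enteroendocrine cells. Delta on the stem cell activates Notch in the daughter that will become an enterocyte. The mtDNA encodes core subunits of respiratory complexes I, III and IV and of the ATP synthase, and nuclear genes encode all other subunits of those complexes and the whole of complex II. FOXO is the transcription factor that insulin signalling keeps out of the nucleus, and the series was set up to ask how expression changes when oxidative phosphorylation is disturbed and what FOXO adds to that.

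The 4 libraries held 25681261 to 39327066 counts. Their rRNA share divided them by replicate number. The first replicates had 18.2% (control) and 30.8% (mutant) and the second replicates 79.4% (control) and 79.6% (mutant), which left 5280149 to 32186975 counts outside rRNA genes. Each control is therefore set beside the mutant of the same class, as the low-rRNA pair (replicate 1 of each) and the high-rRNA pair (replicate 2 of each), and the fit held a term for the class. In these 4 libraries, class and replicate number cannot be told apart. Values are in CPM, the counts scaled to a common library size, on library sizes scaled by the TMM method, and are always given for replicate 1 and then replicate 2. All 16 progenitor markers of the list were measured, and so were the 26 enterocyte markers, whose summed level was 16111 and 8546 in controls and 21448 and 10038 in mutants (CPM). The RNA thus held transcripts of other midgut cells besides those of stem cells.

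With the class term, 241 of 11561 genes tested (2.08%) passed an adjusted p of 0.05 in edgeR's quasi-likelihood test. Of these, 167 were higher (1.44%) and 74 lower (0.64%) in mutant than in control mtDNA, and 1262 genes had an unadjusted p below 0.05. The median log2 fold change was 0.87 among the genes called higher and -0.96 among those called lower, and 93 passed a size of 1 on the log2 scale (59 rises and 34 falls). The groups did not overlap in CPM for 119 of the 241 called genes (75 higher and 44 lower), against 18.7% of all genes tested (8.92% higher and 9.81% lower). A difference of the same sign in both pairs was seen for all 241, which the class term favours, and for 57.1% of all genes tested. Over the 2976 genes whose average log2 CPM was at least 4, the differences in the pairs had a Pearson r of 0.40 across genes, which are not independent replicates. Over all 11561 genes it was 0.15.

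**Figure D1:**
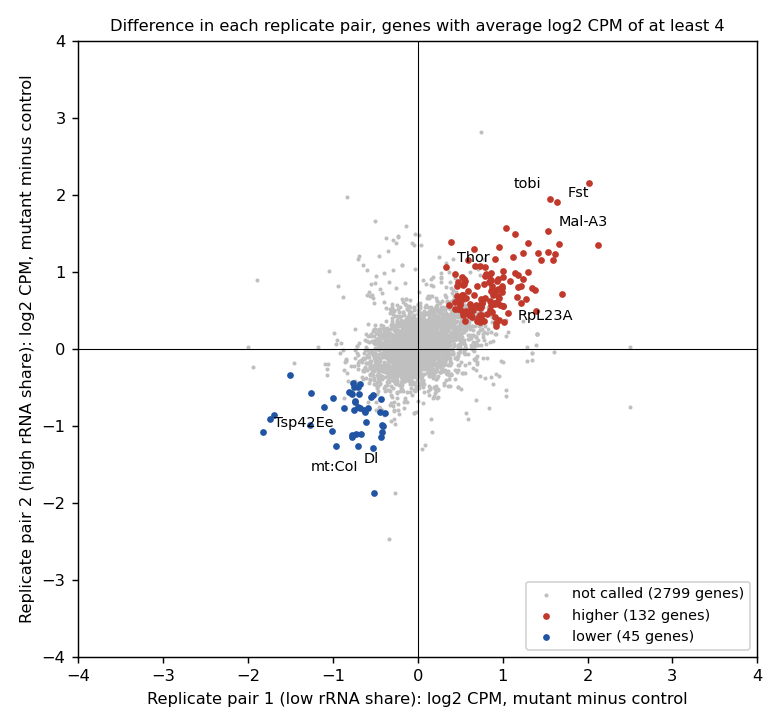
Difference in log2 CPM between mutant and control mtDNA in the low-rRNA pair (x axis) and in the high-rRNA pair (y axis) for the 2976 genes whose average log2 CPM was at least 4, one point per gene. The 132 genes called higher lie to the upper right and the 45 called lower to the lower left, and 2 of the genes lie outside the axes, which end at 4.

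Those counts rest on the class term and on the scaling. With 1 mean per group and no class term the same test called 0 genes (233 at an unadjusted p below 0.05), while limma-voom and DESeq2 with the class term called 543 and 472. With library sizes set to total counts, which include the rRNA, 94 genes were called, 25 higher and 69 lower, so the share of rises went from 69.3% to 26.6%, and the median of all genes moved from 0.01 to -0.25. The sign of a rise of less than about that shift depends on the scaling. So do the calls of most rises, among them larger ones such as Ugt86Dd (1.32) and ImpL3 (1.08). The change of scaling moves every gene nearly alike. Relative to the median of all genes, the medians of the 47 gene lists moved by at most 0.0331 and 0 changed sign. A list median given on total counts below therefore carries the shift. The paragraphs below give the adjusted p on total counts for called genes of the naming rule that lost their call there. Of the 64 called genes of that rule, 25 stayed called in all 8 fits that left out 1 library each. Counts of called list members below stand beside 2.08% of all genes tested (1.44% higher and 0.64% lower). A single call in a list is a result about that gene and not about the list.

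Messenger RNAs encoded by the mtDNA were lower in the RNA pulled down with pAbp from cells with mutant mtDNA. All 13 had a log2 fold change below 0, with a median of -1.04 beside 0.01 for all genes tested, and 4 passed the test. These 4 encode catalytic-core subunits of cytochrome c oxidase (complex IV) and a membrane subunit of complex I. In bulk RNA, fewer cells of a type and less RNA per cell cannot be told apart, here or in any result below. How mtDNA-encoded RNA came into the pull-down of pAbp was not tested, so these values need not follow its level in the cell.

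The transcript of mt:CoI, the subunit that holds the oxygen-reducing site of cytochrome c oxidase, was at 452 and 1514 CPM in controls and 232 and 634 CPM in mutants. Both high-rRNA libraries were above both low-rRNA ones, so the groups overlapped, and the mutant was lower within each pair. The fall was 1.11 ± 0.12 (SE) on the log2 scale, with an adjusted p of 0.00101 in edgeR. For mt:CoIII, another core subunit of that complex, the values were 133 and 1825 CPM in controls and 65.8 and 869 CPM in mutants (log2 fold change -1.04 ± 0.12, adjusted p = 0.00144). The same order within pairs held for mt:CoII, which binds cytochrome c, at 124 and 213 CPM in controls and 61.7 and 137 CPM in mutants (log2 fold change -0.82 ± 0.13, adjusted p = 0.00723). Complex I was represented by mt:ND4, at 3.61 and 114 CPM in controls and 2.20 and 67.6 CPM in mutants (log2 fold change -0.74 ± 0.15, adjusted p = 0.0263). The remaining 9, subunits of complexes I and III and of the ATP synthase, ranged from -2.37 (mt:ND3) to -0.22 (mt:Cyt-b) and did not pass. Exons of mt:CoIII and mt:ND4 touch those of their neighbours mt:ATPase6 and mt:ND4L on the same strand, so some reads may be shared.

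Taken as a share of counts outside rRNA genes, all mtDNA-encoded genes together made up 0.695% in control replicate 1 and 0.399% in mutant replicate 1. In the high-rRNA pair the same share was 5.02% in the control and 2.42% in the mutant. Both mutants were below the control of their own class, and the difference between the classes was larger than that between mutant and control. Leaving out 1 library kept mt:CoI, mt:CoIII and mt:CoII called (highest adjusted p 0.00315, 0.00460 and 0.0289). That of mt:ND4 ended without either control, without mutant replicate 2 or without either library of mutant mtDNA with FOXO knockdown (adjusted p up to 0.147), and in a fit of only the 4 libraries (0.0633).

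**Figure D2:**
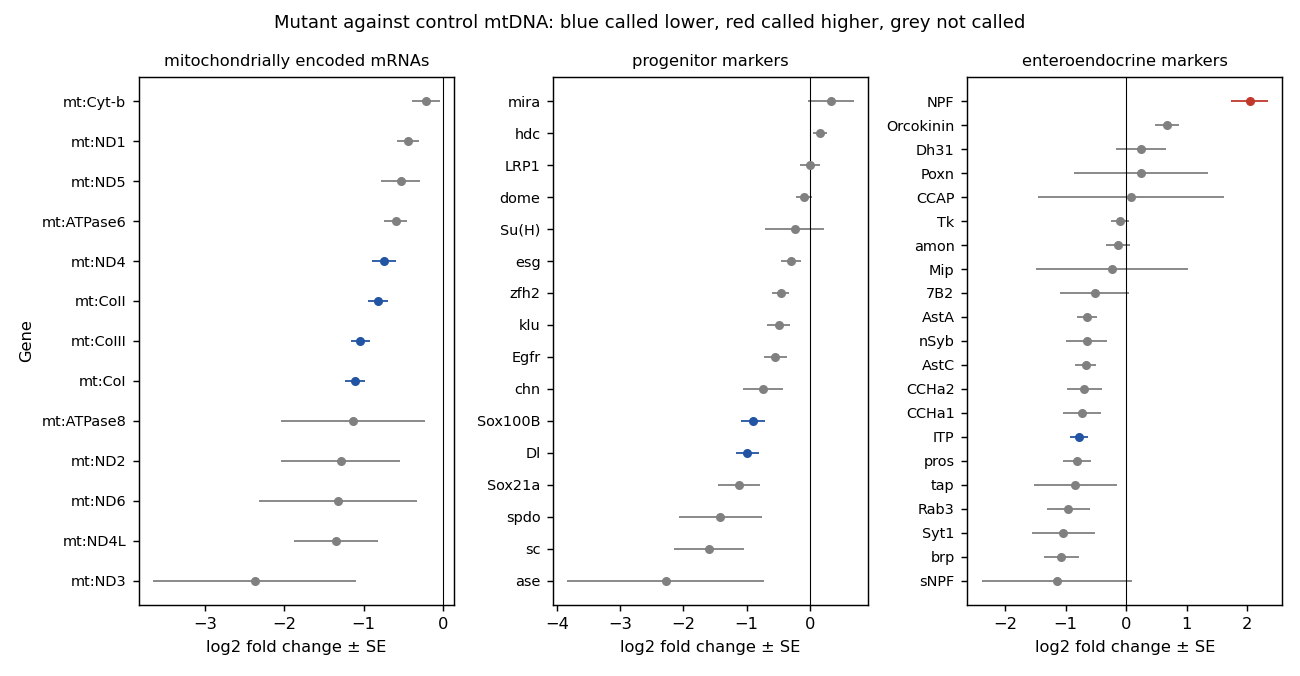
Log2 fold change, mutant against control mtDNA, of each tested member of 3 gene lists, with its SE as the horizontal bar. All 13 mitochondrially encoded mRNAs lie below 0, as do 13 of the 16 progenitor markers and 16 of the 21 enteroendocrine markers, and NPF stands apart as a called rise of 2.05.

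Nuclear genes for the same complexes gave no calls. None passed the test among the tested subunits of complex I (36), complex II (4), complex III (9), complex IV (13) or the ATP synthase (14), and the medians of the log2 fold changes were 0.17, 0.19, 0.06, 0.06 and 0.12. On total counts, relative to the median of all genes, they were 0.16, 0.18, 0.05, 0.05 and 0.12, and before that subtraction all 5 lay below 0. At an unadjusted p below 0.05 there were 1, 1, 3, 1 and 0 genes in the same order. The lowest p in complex I was that of ND-51, at 57.7 and 23.1 CPM in controls and 73.7 and 30.9 CPM in mutants (adjusted p = 0.193). In complex III it was UQCR-C1, at 159 and 57.4 CPM in controls and 195 and 72.8 CPM in mutants (adjusted p = 0.232). The complex II gene SdhA had 98.3 and 41 CPM in controls and 110.3 and 52.6 CPM in mutants (adjusted p = 0.406). COX5A of complex IV had 81.4 and 38.6 CPM in controls and 95.5 and 48.4 CPM in mutants (adjusted p = 0.416). Among 73 mitochondrial ribosomal proteins 0 were called, with a median of 0.05, and among 12 genes of mtDNA maintenance and transcription also 0, with a median of 0.12 (1 gene of each list had an unadjusted p below 0.05). The mitochondrial RNA polymerase, mtRNApol, had 16.6 and 12.8 CPM in controls and 29 and 14.7 CPM in mutants (log2 fold change 0.52 ± 0.20, adjusted p = 0.289).

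The transcripts of 2 mitochondrial matrix chaperones were higher in mutants. Of 13 mitochondrial chaperones and proteases, 2 rose and 0 fell, and 12 had a log2 fold change above 0. The chaperonin Hsp60A had 98.7 and 35.9 CPM in controls and 207 and 49.9 CPM in mutants. Each mutant was above the control of its class, with the larger step in the low-rRNA pair (1.07 against 0.48 on the log2 scale), and the fold change was 0.78 ± 0.15 (SE, adjusted p = 0.0191). Hsp22, a small heat shock protein of the matrix, had 183 and 35.2 CPM in controls and 311 and 53.2 CPM in mutants (log2 fold change 0.68 ± 0.12, adjusted p = 0.0121). Its counts are nearly those of CG4456, whose exons it overlaps on the same strand, so the pair is 1 signal. Both calls ended without control replicate 1 or mutant replicate 1 (adjusted p up to 0.295 and 0.110, with Hsp60A at 0.48), in the fit of only the 4 libraries (0.0554 and 0.0693) and on total counts (0.274 and 0.385).

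Among enzymes of carbon metabolism, lactate dehydrogenase and citrate synthase rose. ImpL3, the lactate dehydrogenase that regenerates NAD+ from glycolysis, had 24.6 and 11.8 CPM in controls and 55.8 and 23.1 CPM in mutants. The groups overlapped by a little across classes, and the mutant was above the control in each pair (log2 fold change 1.08 ± 0.19, adjusted p = 0.0121). It was 1 of 13 glycolysis genes to pass, and all 13 had a log2 fold change above 0, with a median of 0.28 that fell to 0.03, with 8 of 13 above 0, on total counts. The citrate synthase gene kdn, at the entry of the TCA cycle, had 134 and 169 CPM in controls and 222 and 215 CPM in mutants (log2 fold change 0.54 ± 0.12, adjusted p = 0.0405). It was the single call among 16 TCA cycle genes, whose median was 0.17, and on total counts -0.08, or 0.17 relative to all genes. Of 16 genes of lipid storage and breakdown, the lipase gene mag (magro) alone rose, at 80.5 and 59.6 CPM in controls and 119 and 94.4 CPM in mutants (log2 fold change 0.62 ± 0.11, adjusted p = 0.0145), and the median was 0.20 (-0.04 on total counts, or 0.20 relative to all genes). Leaving out control or mutant replicate 1 ended the calls of ImpL3 and kdn (adjusted p up to 0.133 and 0.267, with kdn at 0.35), kdn and mag were also lost without either library of mutant mtDNA with FOXO knockdown, and mag without control replicate 2 (up to 0.0560). In the 4-library fit kdn (0.175) and mag (0.0902) were not called. On total counts the adjusted p was 0.136, 0.578 and 0.509.

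**Figure D3:**
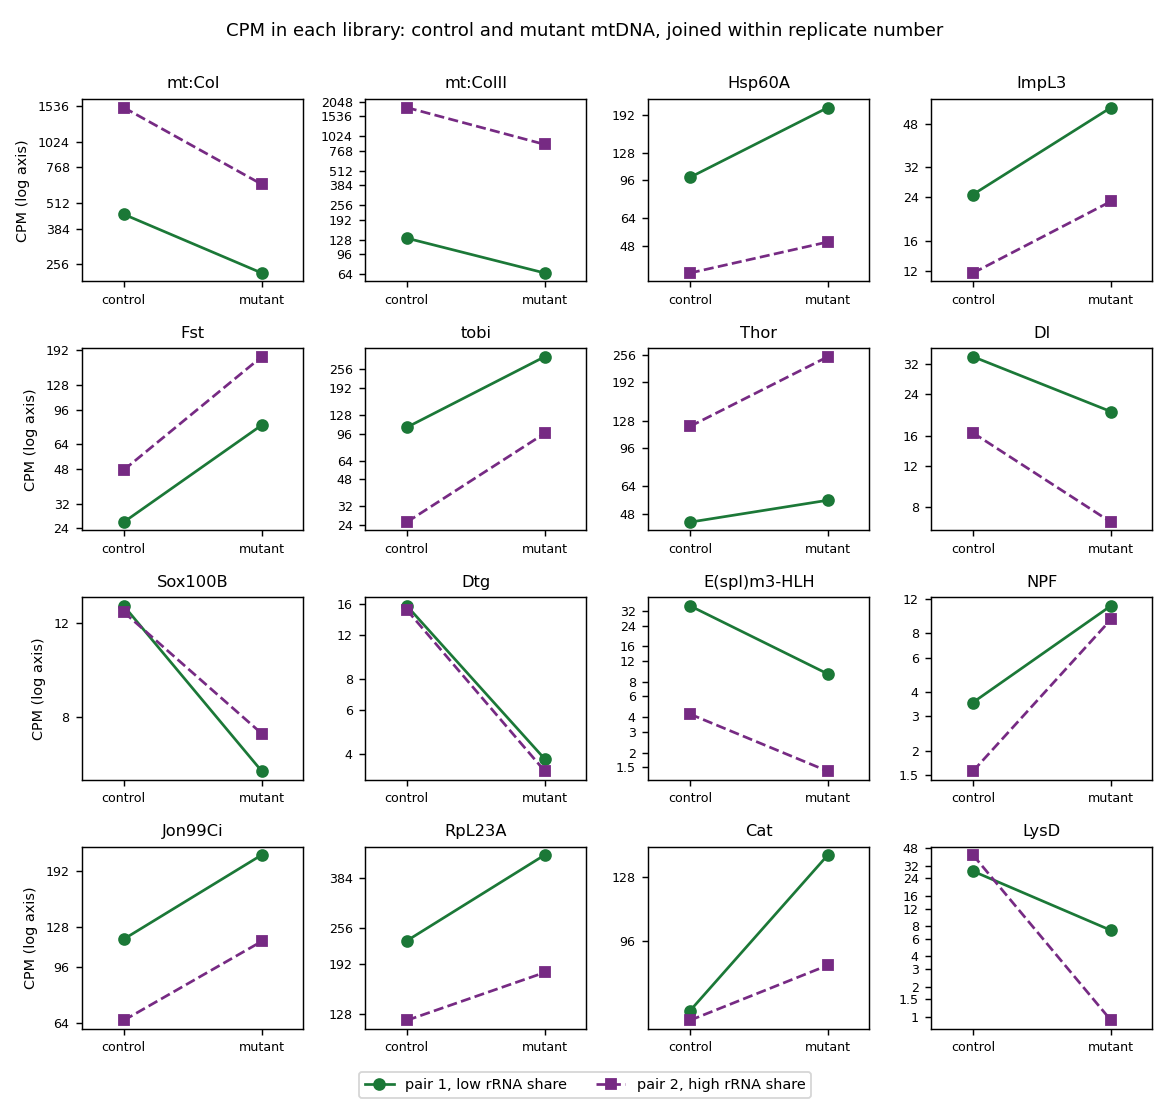
CPM (log axis) of 16 called genes in each of the 4 libraries, control on the left and mutant on the right, with lines joining libraries of the same rRNA class. In every panel both lines run the same way, as in all called genes, which the class term favours. They run down for mt:CoI, mt:CoIII, Dl, Sox100B, Dtg, E(spl)m3-HLH and LysD and up for the others, while the level itself often differs between the classes.

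The rises with the smallest adjusted p were those of Fst and tobi, both genes linked to FOXO, while foxo itself did not pass. The transcript of foxo was at 43.3 and 61.9 CPM in controls and 49.8 and 66.6 CPM in mutants (log2 fold change 0.15 ± 0.11, adjusted p = 0.833). In a list of 13 genes linked to FOXO, 3 rose and 0 fell, and the median was 0.00. Of these, tobi and Fst stand in the list because earlier results of these data were known, so their rise is no independent evidence about the list. The third is Thor, which encodes 4E-BP, a repressor of cap-dependent translation and a textbook FOXO target.

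Fst (Frost), known as a cold-induced gene, was at 25.7 and 47.4 CPM in controls and 80.1 and 178 CPM in mutants. The groups did not overlap, and the fold change was 1.77 ± 0.12 (SE) on the log2 scale with an adjusted p of 4.84e-05. tobi, an alpha-glucosidase-like gene known to answer insulin and glucagon-like signals, was at 106 and 25 CPM in controls and 311 and 97 CPM in mutants. The mutant was higher by a similar step in both pairs (1.55 and 1.95), though mutant replicate 2 lay just below control replicate 1, and the fold change was 1.74 ± 0.12 (adjusted p = 4.97e-05). tobi overlaps rha on the opposite strand, and the use of strand in counting is not given in the sources used here. Thor was at 43.8 and 120.4 CPM in controls and 55.3 and 252 CPM in mutants (log2 fold change 0.70 ± 0.15, adjusted p = 0.0336). Its rise came mainly from the high-rRNA pair, at 1.06 against 0.33, and its call ended without control replicate 2, mutant replicate 2 or either library of mutant mtDNA with FOXO knockdown (adjusted p up to 0.296, over fold changes of 0.31 to 1.06), in the 4-library fit (0.133) and on total counts (0.512). Those of Fst and tobi held in all 8 leave-outs (highest adjusted p 0.000446 and 0.000446).

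Other parts of insulin and stress-kinase signalling gave few calls. Thor was the only call among 21 insulin and TOR pathway genes (median -0.02) and among 17 genes of the ATF4 integrated stress response (median 0.18, on total counts -0.06, or 0.18 relative to all genes). The insulin receptor gene InR was at 67.3 and 123 CPM in controls and 49 and 104 CPM in mutants, a log2 fold change of -0.35 ± 0.11 (adjusted p = 0.181). In the JNK list, 1 of 13 genes was called, and it fell. Mmp2, a matrix metalloproteinase, had 13.2 and 17.3 CPM in controls and 5.46 and 8.71 CPM in mutants. The groups did not overlap, and the fold change was -1.14 ± 0.19 (adjusted p = 0.00868). Without control replicate 1 or mutant replicate 1 its adjusted p rose to as much as 0.0846.

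Markers of stem cells and early progenitors were lower for the most part, with few calls. Of 16 progenitor markers, 2 fell, 0 rose, 8 had an unadjusted p below 0.05 and 12 were lower in both pairs, with a median log2 fold change of -0.52. Their summed level was 380.4 and 372 in controls and 314 and 335 in mutants (CPM), so the groups did not overlap. The enterocyte marker sum given above moved the other way within each pair, and its part in this result was not tested.

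Dl, which encodes the Notch ligand Delta and marks the stem cell itself, was at 34.5 and 16.5 CPM in controls and 20.2 and 6.94 CPM in mutants. The mutant was lower in both pairs and the groups overlapped across classes (log2 fold change -0.99 ± 0.18, adjusted p = 0.0148). Sox100B, a SoxE transcription factor of progenitors, was at 12.9 and 12.6 CPM in controls and 6.32 and 7.43 CPM in mutants. Here both mutants lay below both controls (log2 fold change -0.90 ± 0.19, adjusted p = 0.0341). esg, the repressor that keeps progenitors undifferentiated, was at 26.3 and 21.1 CPM in controls and 18.5 and 20.1 CPM in mutants and did not pass (log2 fold change -0.30 ± 0.16, adjusted p = 0.577). Sox21a, a further progenitor transcription factor, was at 21 and 7.14 CPM in controls and 9.0 and 3.59 CPM in mutants (log2 fold change -1.12 ± 0.33, adjusted p = 0.137), and zfh2 at 68.6 and 63.9 CPM in controls and 44 and 52.8 CPM in mutants (adjusted p = 0.136). Egfr, the receptor for growth signals from surrounding muscle and enterocytes, was at 22.3 and 14.2 CPM in controls and 13.4 and 11.2 CPM in mutants (log2 fold change -0.54 ± 0.19, adjusted p = 0.222). The 3 markers not below 0 were mira at 0.34, hdc at 0.16 and LRP1 at 0.00, none of them called. The call of Dl ended without control or mutant replicate 2 (adjusted p up to 0.129). For Sox100B it ended without any 1 of the 4 compared libraries or either mutant knockdown library (up to 0.369), in the 4-library fit (0.0869) and on total counts (0.0639).

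Few genes in the lists of Notch and of the BMP-type ligand Dpp were called, all of them falls. In the Notch list 2 of 15 tested genes fell, Dl and E(spl)m3-HLH, 4 were above 0, and the median was -0.24. E(spl)m3-HLH, a bHLH repressor that Notch turns on, was at 35.5 and 4.26 CPM in controls and 9.32 and 1.39 CPM in mutants (log2 fold change -1.81 ± 0.28, adjusted p = 0.00625). The class difference was larger than the mutant difference, and the mutant was lower in both pairs. Without control or mutant replicate 1 its adjusted p was up to 0.188. In the BMP list 2 of 15 genes fell, and the median was -0.12. Dtg, named as a Dpp target gene, was at 15.8 and 15.2 CPM in controls and 3.82 and 3.41 CPM in mutants. Both mutants were far below both controls, the fold change was -2.09 ± 0.20 (adjusted p = 0.000579), and the highest adjusted p among the leave-outs was 0.00241. brk, the repressor of Dpp target genes, was at 13.8 and 32.2 CPM in controls and 7.99 and 14.5 CPM in mutants (log2 fold change -0.96 ± 0.15, adjusted p = 0.00756). It lost its call without control or mutant replicate 2 (adjusted p up to 0.0555).

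No call was made in the lists of proliferation and of the other growth pathways. For 31 genes of DNA replication and mitosis the median was -0.20, 25 were below 0, and 0 had even an unadjusted p below 0.05. The lowest p was that of Cdk1, the mitotic kinase, at 1.69 and 3.82 CPM in controls and 1.30 and 1.53 CPM in mutants (adjusted p = 0.572). In the EGFR list (17 genes, median -0.35) 4 had an unadjusted p below 0.05, of which 3 were below 0 and 1 above. The lowest p was that of the ETS factor pnt, at 33.7 and 54.2 CPM in controls and 22.1 and 41.5 CPM in mutants (log2 fold change -0.50 ± 0.12, adjusted p = 0.0682). The one above 0 was kek1, which encodes an inhibitor of Egfr and was singled out after its values were seen, at 6.62 and 5.09 CPM in controls and 16.3 and 11.3 CPM in mutants (log2 fold change 1.23 ± 0.37, adjusted p = 0.144). The JAK-STAT list (9 genes, 2 at unadjusted p below 0.05) had a median of 0.00, the Wnt list (14 genes, 3) one of -0.05 and the Hippo list (12 genes, 0) one of -0.07. The cytokine gene upd3 was at 20.3 and 17.3 CPM in controls and 11.8 and 14.8 CPM in mutants (adjusted p = 0.243). The Wnt receptor gene fz2 was at 48.6 and 45.9 CPM in controls and 39.1 and 28.2 CPM in mutants (adjusted p = 0.0968).

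Several digestive enzymes of enterocytes were higher in mutants. Of 26 enterocyte markers 5 rose, 0 fell, and 15 had an unadjusted p below 0.05, with a median log2 fold change of 0.32. Of 27 Jonah and trypsin-type proteases, 7 rose, 0 fell, 19 had an unadjusted p below 0.05, and 22 were higher in both pairs, with a median of 0.45. The lists share members. On total counts, 0 of either list were called, and the medians were 0.07 and 0.20.

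The serine protease gene Jon99Ci was at 118 and 65.3 CPM in controls and 216 and 116 CPM in mutants (log2 fold change 0.85 ± 0.12, adjusted p = 0.00294). Its mutants were higher by nearly the same step in each pair (0.88 and 0.83), and it stayed called in all 8 leave-outs (highest adjusted p 0.0101). Jon25Biii was at 1072 and 421 CPM in controls and 1656 and 618 CPM in mutants (log2 fold change 0.59 ± 0.11, adjusted p = 0.0197). For Jon25Bii the values were 139.6 and 60.3 CPM in controls and 262 and 90.3 CPM in mutants (log2 fold change 0.75 ± 0.12, adjusted p = 0.00868). These proteases were at a higher level in the low-rRNA pair, and the mutant was above the control in each pair. Jon25Bi, epsilonTry and lambdaTry had log2 fold changes of 0.68 ± 0.14, 0.57 ± 0.12 and 0.63 ± 0.12 (adjusted p = 0.0241, 0.0282 and 0.0226). betaTry was the fifth enterocyte marker to rise beside Jon25Bi, Jon25Biii, epsilonTry and mag, at 1888 and 220.0 CPM in controls and 3247 and 284 CPM in mutants (log2 fold change 0.58 ± 0.13, adjusted p = 0.0482). The member with the highest mean CPM, Jon65Aiv, was at 2579.6 and 1693 CPM in controls and 3373 and 2172 CPM in mutants and did not pass (log2 fold change 0.37 ± 0.12, adjusted p = 0.181). Jonah and trypsin genes have near-identical copies, so reads may be divided between them. Jon25Biii lost its call without either mutant knockdown library, and Jon25Bii and Jon25Bi lost theirs without control or mutant replicate 1. Those of epsilonTry and lambdaTry ended in each of these cases. Over the 8 leave-outs the log2 fold changes were 0.55 to 0.63 (Jon25Biii), 0.58 to 0.91 (Jon25Bii) and 0.48 to 0.88 (Jon25Bi). They were 0.41 to 0.73 for epsilonTry and 0.53 to 0.73 for lambdaTry. Outside Jon99Ci, each protease of the rule also lost its call in the fit of only the 4 libraries (adjusted p = 0.0509 for Jon25Bii to 0.188 for Jon25Biii). On total counts the adjusted p of all 6 was 0.185 (Jon99Ci) to 0.523 (epsilonTry).

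Enteroendocrine transcripts split. Of 21 markers, 1 rose and 1 fell, 16 were below 0, 14 were lower in both pairs, and the median was -0.65. An unadjusted p below 0.05 was reached by 10, all of them lower except NPF and Orcokinin. The summed level was 155 and 228 in controls and 118 and 183 in mutants (CPM), lower in the mutant of each pair. NPF, a peptide hormone that midgut endocrine cells release, was at 3.53 and 1.57 CPM in controls and 11.1 and 9.43 CPM in mutants. Both mutants were above both controls, with a log2 fold change of 2.05 ± 0.30 (SE, adjusted p = 0.00541, highest in the leave-outs 0.0498). ITP, the ion transport peptide gene, was at 13.3 and 36.5 CPM in controls and 8.65 and 19 CPM in mutants (log2 fold change -0.78 ± 0.15, adjusted p = 0.0172). Its call ended without control or mutant replicate 2 or either mutant knockdown library (adjusted p up to 0.140) and in the 4-library fit (0.0776). The member with the highest mean CPM, the hormone gene Tk (tachykinin), was at 27.1 and 17.7 CPM in controls and 26.5 and 15.7 CPM in mutants and did not pass (log2 fold change -0.10 ± 0.14, adjusted p = 0.989). In the tetraspanin cluster at 42E, Tsp42Ee was the only call among 17 genes (median -0.24), at 27.8 and 37.8 CPM in controls and 7.85 and 17.8 CPM in mutants (log2 fold change -1.46 ± 0.18, adjusted p = 0.00176). It stayed called in all leave-outs (highest adjusted p 0.00956).

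**Figure D4:**
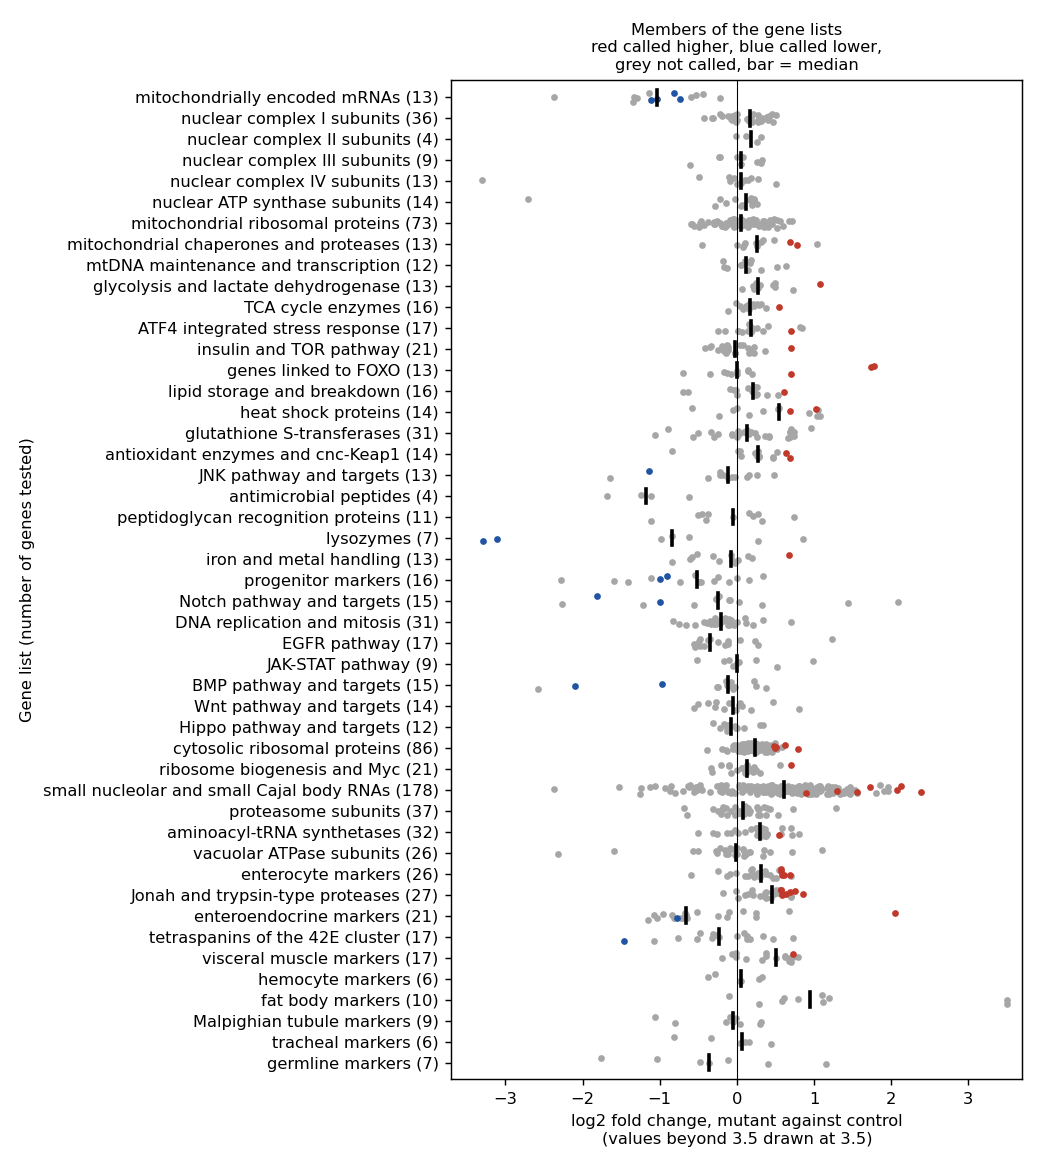
Log2 fold change, mutant against control mtDNA, of each tested member of the 47 gene lists, one point per gene, with the list's median as a black bar. The medians lie between -1.18 (antimicrobial peptides, 4 genes) and 0.94 (fat body, 10 genes), and no list holds more than 7 called members.

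Markers of visceral muscle varied with the pair, and those of the other tissues outside the epithelium had 0 calls. For 17 visceral muscle genes the median difference was -0.07 in the low-rRNA pair and 1.12 in the high-rRNA pair, and their summed level was 2083 and 1579 in controls and 1734 and 3128 in mutants (CPM). Only up, the troponin T gene, was called, at 51.1 and 35.2 CPM in controls and 74.6 and 66 CPM in mutants (log2 fold change 0.72 ± 0.13, adjusted p = 0.0121), and it lost the call without control or mutant replicate 2 (adjusted p up to 0.0846), in the 4-library fit (0.0680) and on total counts (0.409), while 11 members were called without control replicate 1 or without mutant replicate 1. The muscle gene with the highest mean CPM, sls (titin-like), ran in opposite directions, at 523 and 463 CPM in controls and 379 and 1071 CPM in mutants. For 10 fat body markers the summed level was 72.9 and 26.2 in controls and 134 and 35.8 in mutants, with pair medians of 1.82 and 0.10 and 0 called (2 at unadjusted p below 0.05). Yolk protein Yp1 was at 27.9 and 6.07 CPM in controls and 48 and 10.5 CPM in mutants (log2 fold change 0.79 ± 0.19, adjusted p = 0.0693). Hemocyte (6 tested, median 0.05), Malpighian tubule (9, -0.05), tracheal (6, 0.07) and germline (7, -0.36) markers had 0 calls, with 0, 1, 0 and 1 at an unadjusted p below 0.05. Their summed levels, in CPM, were 42.1 and 83.2 in controls and 38.1 and 74.7 in mutants for hemocytes. They were 163 and 208 in controls and 124 and 193 in mutants for Malpighian tubules, 18.5 and 12.5 in controls and 14 and 12.5 in mutants for trachea and 17.6 and 4.55 in controls and 20.7 and 4.98 in mutants for germline. No marker on these lists was at 0 in all 4 libraries. The part of these tissues in the calls above was not tested.

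Among stress and defence genes, 1 small heat shock gene beside Hsp22 and a few antioxidant genes rose, and 2 lysozyme genes fell. Of 14 heat shock genes 2 rose (median 0.54), the pair medians were 0.93 and 0.06, and 7, both called genes among them, were higher in both pairs. Hsp27 was at 22.2 and 9.78 CPM in controls and 49.6 and 17.9 CPM in mutants (log2 fold change 1.02 ± 0.18, adjusted p = 0.0121), and was not called without control or mutant replicate 1 (adjusted p up to 0.310). Of 14 antioxidant genes 2 rose, and 13 were above 0, with a median of 0.28 (0.03, with 9 above 0, on total counts). Trxr-1, the thioredoxin reductase that also serves glutathione reduction in flies, was at 104 and 34.1 CPM in controls and 169.9 and 49.9 CPM in mutants (log2 fold change 0.63 ± 0.11, adjusted p = 0.0138). Catalase, Cat, which breaks down hydrogen peroxide, was at 70.1 and 67.2 CPM in controls and 141 and 86.1 CPM in mutants (log2 fold change 0.69 ± 0.15, adjusted p = 0.0336). The metallothionein MtnA, a copper-binding protein, was at 207 and 112 CPM in controls and 401 and 146 CPM in mutants (log2 fold change 0.67 ± 0.14, adjusted p = 0.0278) and was the one call among 13 genes of iron and metal handling (median -0.07). Each of these 3 lost its call without control or mutant replicate 1 or without either mutant knockdown library (adjusted p up to 0.121, 0.373 and 0.220, with Cat at 0.36 and MtnA at 0.38 at the lowest) and in the 4-library fit (0.0818, 0.0925 and 0.116). On total counts, Hsp27, Trxr-1, Cat and MtnA had adjusted p of 0.128, 0.446, 0.385 and 0.356.

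LysD and LysB, digestive lysozymes of the midgut, had the steepest falls of the called genes that the rule names. LysD was at 28.3 and 41 CPM in controls and 7.27 and 0.925 CPM in mutants. Both mutants lay below both controls, by far the most in the high-rRNA pair (-5.40 against -1.95), and the fold change was -3.29 ± 0.54 (adjusted p = 0.00868). LysB was at 5.48 and 4.94 CPM in controls and 1.18 and 0.213 CPM in mutants (log2 fold change -3.11 ± 0.62, adjusted p = 0.0252). It lost its call without control or mutant replicate 2 (adjusted p up to 0.277), and LysD kept it in all leave-outs, with values of -5.47 at the lowest (a library of the low-rRNA pair left out) and -1.96 at the highest (a library of the high-rRNA pair left out). Lysozyme genes of this cluster are near-identical copies, and LysD overlaps LysC on the opposite strand. The list of 7 had a median of -0.84. No glutathione S-transferase of 31 was called (7 at unadjusted p below 0.05, median 0.13, -0.12 on total counts), with GstT4 nearest at 49 and 23.9 CPM in controls and 84.3 and 36.7 CPM in mutants (log2 fold change 0.71 ± 0.17, adjusted p = 0.0621). The 4 tested antimicrobial peptides (0 at unadjusted p below 0.05, median -1.18) and 11 peptidoglycan recognition proteins (1 at unadjusted p below 0.05, median -0.05) also had 0 calls.

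In the growth lists, some small nucleolar RNAs and some ribosomal protein genes rose. Of 178 small nucleolar and small Cajal body RNAs, 7 rose (3.93%, beside 1.44% of all genes tested) and 0 fell. In that list 142 were above 0, and the median was 0.62. These RNAs guide the cleavage and modification of rRNA and are not polyadenylated as a rule. U3, which is needed for the first cleavages of pre-rRNA, was represented by snoRNA:U3:54Aa at 21.9 and 1.66 CPM in controls and 88.5 and 7.61 CPM in mutants (log2 fold change 2.08 ± 0.25, adjusted p = 0.00146). The class effect on it was large, and the mutant was about as far above the control in each pair (2.01 and 2.16). snoRNA:CG32479-b was at 17.1 and 0.440 CPM in controls and 62 and 3.31 CPM in mutants (log2 fold change 2.13 ± 0.32, adjusted p = 0.00625). The pseudouridine guide snoRNA:Psi28S-291 was at 193 and 4.50 CPM in controls and 611 and 11.6 CPM in mutants (log2 fold change 1.55 ± 0.20, adjusted p = 0.00229). For another, snoRNA:Psi18S-1377a, the values were 44.2 and 23 CPM in controls and 78.8 and 44.6 CPM in mutants (log2 fold change 0.89 ± 0.15, adjusted p = 0.00894). All 4 stayed called in every leave-out (highest adjusted p 0.0397, for snoRNA:CG32479-b), and on total counts only snoRNA:Psi18S-1377a was lost (0.190). Near-identical copies of snoRNA genes make the split of reads between them uncertain.

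Of 86 cytosolic ribosomal protein genes 5 rose, 0 fell, 32 had an unadjusted p below 0.05 and 78 were above 0, with a median of 0.24. On total counts the median was -0.01, 41 were above 0 and 0 were called. RpL23A, a protein of the exit tunnel of the large subunit, was at 231 and 121 CPM in controls and 465 and 179 CPM in mutants (log2 fold change 0.79 ± 0.13, adjusted p = 0.00756). Its exons overlap the snoRNA host gene Uhg7 on the same strand. RpL3, RpL7A and RpLP2 had log2 fold changes of 0.62 ± 0.11, 0.51 ± 0.10 and 0.49 ± 0.10 (adjusted p = 0.0131, 0.0260 and 0.0336), and RpS2 was the other call (log2 fold change 0.48 ± 0.10, adjusted p = 0.0341). RpL23A stayed called in all leave-outs (highest adjusted p 0.0272), whereas RpL3, RpL7A and RpLP2 lost their calls without a mutant knockdown library, RpLP2 also without a low-rRNA library (up to 0.0508, 0.105 and 0.130). All 4 failed in the fit of only the 4 libraries (adjusted p = 0.0548 for RpL23A to 0.240 for RpLP2) and on total counts (0.204 for RpL23A, 0.497 for RpL3, 0.662 for RpL7A and 0.687 for RpLP2). Among 21 genes of ribosome biogenesis (median 0.13, -0.13 on total counts), Non1, a nucleolar GTPase, alone rose, at 229 and 140.5 CPM in controls and 310.0 and 276 CPM in mutants (log2 fold change 0.70 ± 0.14, adjusted p = 0.0226). Of 32 aminoacyl-tRNA synthetases (median 0.31) AspRS alone rose, at 92.1 and 40.9 CPM in controls and 141 and 56.8 CPM in mutants (log2 fold change 0.55 ± 0.12, adjusted p = 0.0460). Non1 stayed called in 4 of the 8 leave-outs and AspRS in 3 (adjusted p up to 0.169 without control replicate 2, where Non1 was at 0.41, and 0.238 without mutant replicate 1). Neither was called in the 4-library fit (0.114 and 0.133) or on total counts (0.478 and 0.598). The 37 proteasome genes (2 at unadjusted p below 0.05, median 0.08, -0.17 on total counts) and 26 vacuolar ATPase genes (3, median -0.02) had 0 calls, with Vha100-5 nearest at 134 and 102 CPM in controls and 196 and 126 CPM in mutants (adjusted p = 0.0787).

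The 15 largest rises, among genes whose average log2 CPM was at least 3, also held genes outside these lists. CG4835, an uncharacterised gene, was at 0.677 and 5.53 CPM in controls and 4.06 and 25 CPM in mutants (log2 fold change 2.37 ± 0.20, adjusted p = 0.000186), and CG32302 at 1.87 and 0.342 CPM in controls and 9.27 and 1.24 CPM in mutants (log2 fold change 2.21 ± 0.26, adjusted p = 0.00143). For both, the class difference exceeded the mutant difference. CG32302 reached the average log2 CPM of 3 through the knockdown libraries alone (the log2 of its mean CPM in the 4 libraries was 1.67). It overlaps yellow-g on the opposite strand and was not called without control or mutant replicate 1 (adjusted p up to 0.126). The maltase gene Mal-A3, which splits sugars at the enterocyte surface, was at 79.4 and 26.5 CPM in controls and 230.0 and 76.7 CPM in mutants, with nearly equal steps in the pairs (1.53 and 1.53) and an adjusted p of 0.000108. Cyp6a23, a cytochrome P450 gene, was at 37.7 and 45.4 CPM in controls and 100.3 and 108 CPM in mutants (log2 fold change 1.33 ± 0.11, adjusted p = 0.000186). Both mutants lay above both controls, as they did for Ugt86Dd, a UDP-glycosyltransferase gene, at 12.7 and 16.5 CPM in controls and 28.1 and 46.5 CPM in mutants (log2 fold change 1.32 ± 0.17, adjusted p = 0.00291). Among the rest, CR44138, mwh, Oseg4 and CR43866 rose by 1.74 ± 0.21, 1.40 ± 0.20, 1.39 ± 0.15 and 1.34 ± 0.14. mwh acts in planar cell polarity and Oseg4 in intraflagellar transport, though Oseg4 overlaps drpr on the same strand. The trypsin-like Try29F rose by 1.67 ± 0.27, overlaps CG18661 and was lost without control or mutant replicate 1 (adjusted p up to 0.411). Ugt86Dd alone was lost on total counts (0.0531).

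Among the 15 largest falls were 10 genes outside these lists. CG10178 was at 8.70 and 11.6 CPM in controls and 2.32 and 3.31 CPM in mutants (log2 fold change -1.86 ± 0.22, adjusted p = 0.00144), and CG44013 at 19.1 and 14.9 CPM in controls and 6.43 and 4.20 CPM in mutants (log2 fold change -1.69 ± 0.23, adjusted p = 0.00294). The log2 of the mean CPM of CG10178 in the 4 libraries was 2.70, so it too met the level of 3 through the knockdown libraries. In both genes, the 4 values fell into 2 groups that did not overlap, and the calls held in all leave-outs (highest adjusted p 0.0108 and 0.0147). CG33109 was at 42.5 and 21.4 CPM in controls and 17.3 and 9.36 CPM in mutants (log2 fold change -1.25 ± 0.17, adjusted p = 0.00294). The overlapping CG15199 and CR44054, which lie on opposite strands and may be 1 signal, fell by 1.39 ± 0.20 and 1.33 ± 0.20. CG45080 and CG40178 fell by 1.25 ± 0.23 and 1.17 ± 0.19, and CG42807, a (arc, a PDZ-domain protein) and CG18067 fell by 1.18 ± 0.24, 1.16 ± 0.26 and 1.16 ± 0.24. Those of CG15199, CR44054, CG45080 and CG40178 ended without control or mutant replicate 1 and that of CG33109 without control replicate 1 (adjusted p up to 0.0747, 0.0775, 0.350, 0.0957 and 0.0634), with CG15199 at -0.91 and CR44054 at -0.86 at the least. CG42807 was lost without control or mutant replicate 2 and in the 4-library fit (0.0504), with fold changes of -1.88 to -0.52 over the leave-outs, and a and CG18067 without either control, mutant replicate 2 or either mutant knockdown library, a also without mutant replicate 1 (up to 0.162, 0.267 and 0.456).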

How the data were processed

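The authors deposited 1 table of counts, reads per gene as whole numbers with no normalization, for 8 libraries of RNA bound to tagged pAbp. The submitters' processing notes name FastQC, cutadapt, HISAT2, featureCounts and limma, with no version or role, and the genome build, annotation and use of strand are not given in the sources used here, so no coordinates are printed. Of 17473 gene identifiers 17331 matched the names table, which with a gene annotation served for names, biotypes and exon overlaps. Reads of repeated genes were in part counted for several genes: 140 of the 6753 genes with over 1000 counts had counts identical to those of another gene. Groups and replicate numbers came from the labels.

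Counts were fitted with edgeR 4.0.16 in R 4.3.3 (filterByExpr, TMM, glmQLFit and glmQLFTest, two-sided), with all 8 libraries, 1 mean per group and a term for library class, rRNA below or above 50% of counts. P-values were adjusted by Benjamini-Hochberg over 11561 genes with a threshold of 0.05. SE are the unshrunk log2 coefficient divided by the root of F. Differences within pairs are of log2 CPM, computed with 2 as prior count. The spread comes from few residual degrees of freedom, more of them from the knockdown libraries than from the 4 compared. The median squared deviation between replicates, relative to counting variance, was 206 (control) and 149 (mutant), with the class difference included. In the knockdown groups it was 4.63 (control mtDNA) and 1.97 (mutant mtDNA). Alternatives were other scalings, filters and thresholds, limma-voom (limma 3.58.1), DESeq2 1.42.0, models without the class term or with replicate number, and leaving out each library. Python 3.11.15, pandas 2.3.3 and matplotlib 3.10.9 served for tables and plots.

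The comparison, its class term and the 47 gene lists were chosen with earlier results of these data known, and 1 list was renamed after its values were seen. Named are, among called genes of average log2 CPM 3 or more that are not rRNA genes or pseudogenes and move the same way in both pairs, the 15 largest rises and 15 largest falls. Further named are called list members (all where 4 or fewer, else the 4 with the smallest p), foxo, Thor, InR, esg and Dl, the progenitor markers, the member with the highest mean CPM of each list of other cells, and in lists with no call up to 2 members with the smallest p. betaTry and RpS2, named to complete counts of 5, and kek1 stand outside this rule. The average is over all 8 libraries. Total counts per library were 21133996 to 39327066. For a gene at 0 the limit was set at 3 counts, equal to 0.0239 to 0.147 CPM in the 4 libraries, which covers counting error only.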

Additional observations from a re-analysis of the deposited data

Results flagged for a closer look

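For 17 of the named genes, the difference between mutant and control mtDNA was itself different under FOXO knockdown, by edgeR's interaction term at an adjusted p below 0.05 over all genes tested. Among all 241 called genes, the interaction passed for 43, and 8 were also called under knockdown. The shares of all genes tested that passed either are not given here, so neither count is a result about the called genes. The genes were chosen for their difference without knockdown, which favours a smaller difference with it, and the knockdown libraries are all of the high-rRNA class. What these differences depend on was not tested.

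Of the rises, the interaction was -2.33 ± 0.27 (SE) on the log2 scale for CG4835 (adjusted p = 0.00648), which under knockdown was at 18.6 and 17.2 CPM (control mtDNA) and 18.9 and 17.8 CPM (mutant mtDNA). CG32302 had an interaction of -2.38 (adjusted p = 0.0116) and stood under knockdown at 20.9 and 18.6 CPM (control mtDNA) and 16.7 and 18.4 CPM (mutant mtDNA). All 4 lie above the mutant values of CG32302 without knockdown. CG32302 and, among the falls, CG10178 met the average log2 CPM of 3 that the naming rule asks only through the knockdown libraries, so for these 2 genes the interaction is a description that the choice favours. Fst had -1.53 (adjusted p = 0.00402), with 128 and 121 CPM (control mtDNA) and 148 and 146 CPM (mutant mtDNA) under knockdown. For tobi it was -1.72 (adjusted p = 0.00377), with knockdown values of 166 and 170.3 CPM (control mtDNA) and 169 and 173 CPM (mutant mtDNA), all within a few CPM of each other. Mal-A3 had -1.42 (adjusted p = 0.00648) and knockdown values of 56 and 49.5 CPM (control mtDNA) and 54.3 and 59.9 CPM (mutant mtDNA). In CG4835, Fst, tobi and Mal-A3 the high-rRNA control without knockdown was at 5.53, 47.4, 25 and 26.5 CPM. Both knockdown libraries with control mtDNA lay above it in each, so the smaller difference stood beside a higher control level. Hsp27 went the other way, at 9.78 CPM in that control and 5.92 and 4.98 CPM under knockdown (control mtDNA). The interaction of CR43866 was -1.41 (adjusted p = 0.0116), that of Cyp6a23 -1.18 (adjusted p = 0.0116) and that of Hsp27 -1.59 (adjusted p = 0.0339). In 4 ribosomal protein genes it was -1.26 (RpL23A, adjusted p = 0.0116), -1.08 (RpLP2, 0.0116), -0.837 (RpL3, 0.0430) and -0.783 (RpL7A, 0.0445). Under knockdown these 4 had differences of -0.48, -0.59, -0.22 and -0.27, opposite in sign to those without it.

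Of the falls, Dtg had an interaction of 1.88 ± 0.28 (adjusted p = 0.0169) and was under knockdown at 14.8 and 16.3 CPM (control mtDNA) and 14.7 and 12 CPM (mutant mtDNA), all near the control values without knockdown. CG10178 had 2.30 (adjusted p = 0.0116) and 10.6 and 13.3 CPM (control mtDNA) and 15.4 and 17 CPM (mutant mtDNA) under knockdown. CG44013 had 1.73 (adjusted p = 0.0429). For CG33109 it was 2.10 (adjusted p = 0.00648), where the knockdown libraries were at 5.27 and 5.04 CPM (control mtDNA) and 9.54 and 9.03 CPM (mutant mtDNA). The interaction of Mmp2 was 1.69 (adjusted p = 0.0183), with 18.3 and 23.2 CPM (control mtDNA) and 27.6 and 33.5 CPM (mutant mtDNA).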

How the results depend on the processing

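The count of 241 called genes (167 higher, 74 lower) stayed within 1.5 times with DESeq2 size factors (239), rRNA genes removed (260) and a filter of 5 CPM in 2 libraries (246). It moved to 546 (371 higher, 175 lower) with no filter, 472 (312 and 160) with DESeq2, 543 (355 and 188) with limma-voom, 94 (25 and 69) on total counts and 90 (61 and 29) at an adjusted p of 0.01. Leaving out 1 library gave 133 to 370 calls (93 to 244 higher, 40 to 126 lower), fewest without mutant knockdown replicate 1 and most without control knockdown replicate 1. Without control replicates 1 and 2 it was 182 and 286, and without mutant replicates 1 and 2 it was 194 and 290. All 241 genes kept their sign wherever they were tested, and 66 were called in all 8 leave-outs. The r between the pairs was 0.15 over all genes tested and with DESeq2 size factors, 0.384 over genes with at least 5 CPM in 2 libraries and 0.404 over those of average log2 CPM 4 or more. The cause of these shifts was not tested. Of 47 list medians, 17 changed sign on total counts, where the median of all genes moved to -0.25, and 0 did relative to that median.

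In a fit with no replicate block and no class term 0 genes were called, 0 higher and 0 lower (233 at an unadjusted p below 0.05). With replicate number as a block over all 8 libraries it was again 0, 0 and 0 (277 at an unadjusted p below 0.05), and in the 4 compared libraries, where the block is the class, 161 (106 higher, 55 lower), of which 130 were also called with the class term. Deviations from the group means correlated at 0.669 between control and mutant libraries of the same number and at -0.04 to 0.00 for every other pair of groups. Only the control and mutant groups without knockdown have replicates that differ in rRNA class. The 0.669 therefore cannot tell replicate number from class. The high-rRNA libraries hold 5280149 and 7561200 counts outside rRNA, which limits low genes there.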

Other observations

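Several gene families, some with members on the lists above, were looked up after their called members had been seen. Their counts are therefore descriptions of a choice made on these values. Of 8 Mal-A maltases, which split disaccharides at the gut surface, 5 rose and 0 fell, with a median log2 fold change of 0.77. Mal-A8 was at 186 and 163 CPM in controls and 338 and 305 CPM in mutants (log2 fold change 0.88 ± 0.11, adjusted p = 0.00172), both mutants above both controls. Mal-A1 was at 935 and 641 CPM in controls and 1296 and 741 CPM in mutants and did not pass (log2 fold change 0.34 ± 0.12, adjusted p = 0.243). Of 6 lysosomal alpha-mannosidases, 3 rose, among them LManV at 339 and 303 CPM in controls and 718 and 559 CPM in mutants (log2 fold change 0.99 ± 0.12, adjusted p = 0.00144), again with no overlap. Of 3 P-glycoprotein transporters, which pump foreign compounds out of cells, 2 rose, Mdr50 at 37.7 and 34.8 CPM in controls and 103 and 77.5 CPM in mutants (log2 fold change 1.31 ± 0.14, adjusted p = 0.000978) and Mdr49 at 42.5 and 26 CPM in controls and 96.2 and 45.6 CPM in mutants (log2 fold change 1.00 ± 0.14, adjusted p = 0.00294). All 3 tested copies of U3 small nucleolar RNA, a part of the small nucleolar RNA list, rose, by 1.73 to 2.38. The largest of these rises, that of snoRNA:U3:54Ab, had 0 (control) and 0.107 CPM (mutant) in the high-rRNA pair, at or below the limit of 3 counts. The Cyp6a cytochromes went both ways, with 2 of 14 higher and 1 lower, and 2 of 15 UDP-glycosyltransferases were higher.

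Also chosen after its value was seen, the large rRNA of the mitochondrial ribosome, mt:lrRNA, fell beside the mtDNA-encoded mRNAs, at 1008 and 5979.8 CPM in controls and 743 and 2717 CPM in mutants (log2 fold change -0.79 ± 0.17, adjusted p = 0.0361). scyl and chrb, a pair of genes whose products restrain TOR signalling under low oxygen and other stress, both rose. scyl was at 263 and 388 CPM in controls and 498 and 489 CPM in mutants (log2 fold change 0.63 ± 0.14, adjusted p = 0.0400). chrb was at 55.6 and 74.5 CPM in controls and 86.7 and 99 CPM in mutants (log2 fold change 0.53 ± 0.11, adjusted p = 0.0336), with both mutants above both controls. Of these called genes, Mal-A8, LManV, Mdr50 and Mdr49 stayed called in all 8 leave-outs, mt:lrRNA in 3, scyl in 2 and chrb in 4, and of those named beside their lists above, RpS2 in 4 and betaTry in 2. In the fit of only the 4 libraries mt:lrRNA, scyl, chrb, RpS2 and betaTry were not called (adjusted p = 0.150 for chrb to 0.252 for RpS2). On total counts Mdr50 and mt:lrRNA kept their calls, and the other 7 had an adjusted p of 0.0618 (LManV) to 0.709 (RpS2). These values carry no independent support, since the same 4 libraries gave both the choice and the value.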
